A study of Homo sapiens with 2 samples.

Results

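The genes examined here were 41 genes of the ATF4 stress pathway and of the unfolded protein response of the endoplasmic reticulum (ER), taken by name from the 54261 genes in the count table. The rule that chose them lists genes by their known roles and uses no measured value, though it was written with earlier results of these data known. Cells of the human colon carcinoma line RKO were transiently transfected with a negative control siRNA (si-NC, labelled control) or with an siRNA against the splicing factor SRSF2 (si-SRSF2, labelled siSRSF2), and RNA was collected 2 days later. Both groups grew in the same serum-containing medium, and the labels name no other treatment. Each group was 1 poly(A)-selected RNA-seq library, so no difference has a replicate check and no test was run. Values are raw read counts per gene and CPM, which scales the reads of a gene to a common library total with TMM factors. Ratios are log2 of si-SRSF2 over si-NC, each level raised by 0.5 CPM, and carry a 95% Clopper-Pearson interval that covers counting error only. The interval is that of the ratio without the added 0.5 CPM. At low counts the printed ratio is therefore drawn toward 0 relative to its interval.

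The libraries held 19931360 counts (si-NC) and 14512802 counts (si-SRSF2), and 12620 genes whose mean reached 1 CPM were carried forward, which is what genes tested means here. SRSF2 itself had 1964 counts in the control library and 713 after knockdown, which left 49.9% of the control level. Of 9 colon epithelial markers, 4 (EPCAM, KRT8, KRT18 and CDX2) passed 1 CPM, of which KRT8 had a log2 ratio of 0.62 (0.47 to 0.80), while KRT19, KRT20, CDH1, CDH17 and VIL1 did not. Of 10 markers of leukocytes, fibroblasts and endothelium, 9 had at most 13 counts in either library, and the remaining marker, CD68, a lysosomal protein that is also made outside leukocytes, had 763 and 982 CPM.

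ATF4 is a transcription factor whose mRNA is translated preferentially when the initiation factor eIF2 is phosphorylated, which happens under amino acid shortage, ER stress and other stresses. It switches on genes for amino acid synthesis and uptake, the amino-acid arm. ER stress is sensed by the kinase PERK (gene EIF2AK3), which phosphorylates eIF2, by the nuclease and kinase IRE1 (ERN1), which splices XBP1 mRNA, and by ATF6, which is cleaved to release a transcription factor. XBP1 and ATF6 switch on ER chaperones and folding enzymes, the chaperone arm, together with genes that remove misfolded proteins. Counts per gene do not show translation of ATF4, splicing of XBP1 by IRE1 or cleavage of ATF6.

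Both arms are known for different promoter elements, which are shown here because they mark which factor is thought to act on which gene. For ATF4 this is the C/EBP-ATF response element (CARE), searched as TGATGNAA. For ATF6 and XBP1 it is the ER stress response element (ERSE), searched as CCAAT and CCACG with 9 bases between them, its shorter form ERSE-II, searched as ATTGG and CCACG with 1 base between them, and the unfolded protein response element (UPRE), searched as TGACGTGG. The 250 bases before each RefSeq start site were searched on both strands for 37 of the 41 members with an entry (GRCh38.p14). CARE letters stood before 5 of the 37 members, against 3.89% of all 27305 genes in the table. Only 1 of these 5, ASNS, was among the 8 amino-acid arm genes searched, while 3 were regulators or effectors. The 4 members without an entry, PSPH, SHMT2, PYCR1 and SLC7A11, all belong to the amino-acid arm. ERSE letters stood before 6 of the 37, against 0.0916% of all genes, and 5 of those 6 were among the 11 chaperone arm genes. ERSE-II stood before 3 members (0.0659% of all genes) and UPRE before 2, ALDH18A1 and HYOU1 (0.780% of all genes). In HYOU1 the UPRE overlapped an ERSE-II. Members and elements were both taken from what is known of these pathways, so an excess over all genes is no finding of these data. A match is a string of letters and does not show that a factor binds there.

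The CARE matches in capitals, read 5′ to 3′ on the strand of the gene, were those of ASNS, CEBPG, CHAC1, HERPUD1 and ATF3. In CHAC1 and HERPUD1 the element lies in reverse complement.
ASNS (chr7:97872458-97872487, minus strand): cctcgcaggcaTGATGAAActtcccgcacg
CEBPG (chr19:33374060-33374089, plus strand): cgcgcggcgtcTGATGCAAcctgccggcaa
CHAC1 (chr15:40953251-40953280, plus strand): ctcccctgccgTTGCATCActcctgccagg
HERPUD1 (chr16:56931955-56931984, plus strand): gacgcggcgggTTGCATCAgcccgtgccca
ATF3 (chr1:212565205-212565234, plus strand): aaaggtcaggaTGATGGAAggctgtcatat

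The ERSE matches in capitals belonged to HSPA5, HSP90B1, CALR, PDIA6, CRELD2 and XBP1, and HSP90B1 had a pair of them, of which the first is shown. The element lies in reverse complement in CALR and CRELD2. The last 2 lines show the shorter ERSE-II of HERPUD1 and, in reverse complement, of SDF2L1.
HSPA5 (chr9:125241385-125241414, minus strand): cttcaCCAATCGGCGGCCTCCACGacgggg
HSP90B1 (chr12:103930211-103930240, plus strand): cctgaCCAATCGGAAGGAGCCACGcttcgg
CALR (chr19:12938379-12938408, plus strand): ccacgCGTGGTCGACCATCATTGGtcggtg
PDIA6 (chr2:10812847-10812876, minus strand): ccggaCCAATGAGCCGCAGCCACGgcttgg
CRELD2 (chr22:49918549-49918578, plus strand): cctctCGTGGCGAACTCGGATTGGgccata
XBP1 (chr22:28800597-28800626, minus strand): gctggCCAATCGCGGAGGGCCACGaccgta
HERPUD1 (chr16:56932016-56932045, plus strand): cggacgccgATTGGGCCACGttgggagagt
SDF2L1 (chr22:21642105-21642134, plus strand): cctcggaagCGTGGACCAATcaaaaccctc

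Differences over the whole set were small. Of the 41 members, 39 passed 1 CPM, and their median log2 ratio was 0.03, beside -0.02 for all genes tested. No member was 2-fold higher or lower, where 0.848% and 0.499% of all genes tested were. ERN1 alone was at least 1.5-fold lower (3.52% of all genes tested) and no member was at least 1.5-fold higher (4.18%). The log2 ratio was above 0 for 22 members and below 0 for 17, against 46.2% and 53.8% of all genes tested. For 34 of the 39 the whole interval lay within 1.5-fold of no difference, as it did for 70.7% of all genes tested. The exceptions were ERN1, PSPH, HYOU1, CHAC1 and ATF3, and for CHAC1 the interval also went past 2-fold. The interval lay above 0 for 11 members and below 0 for 11, against 21.0% and 26.7% of all genes tested, and the remaining 17 could not be told from 0 at this depth. The plot of levels in both libraries shows the pairs of values, and the plot of ratios shows the intervals.

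**Figure D1:**
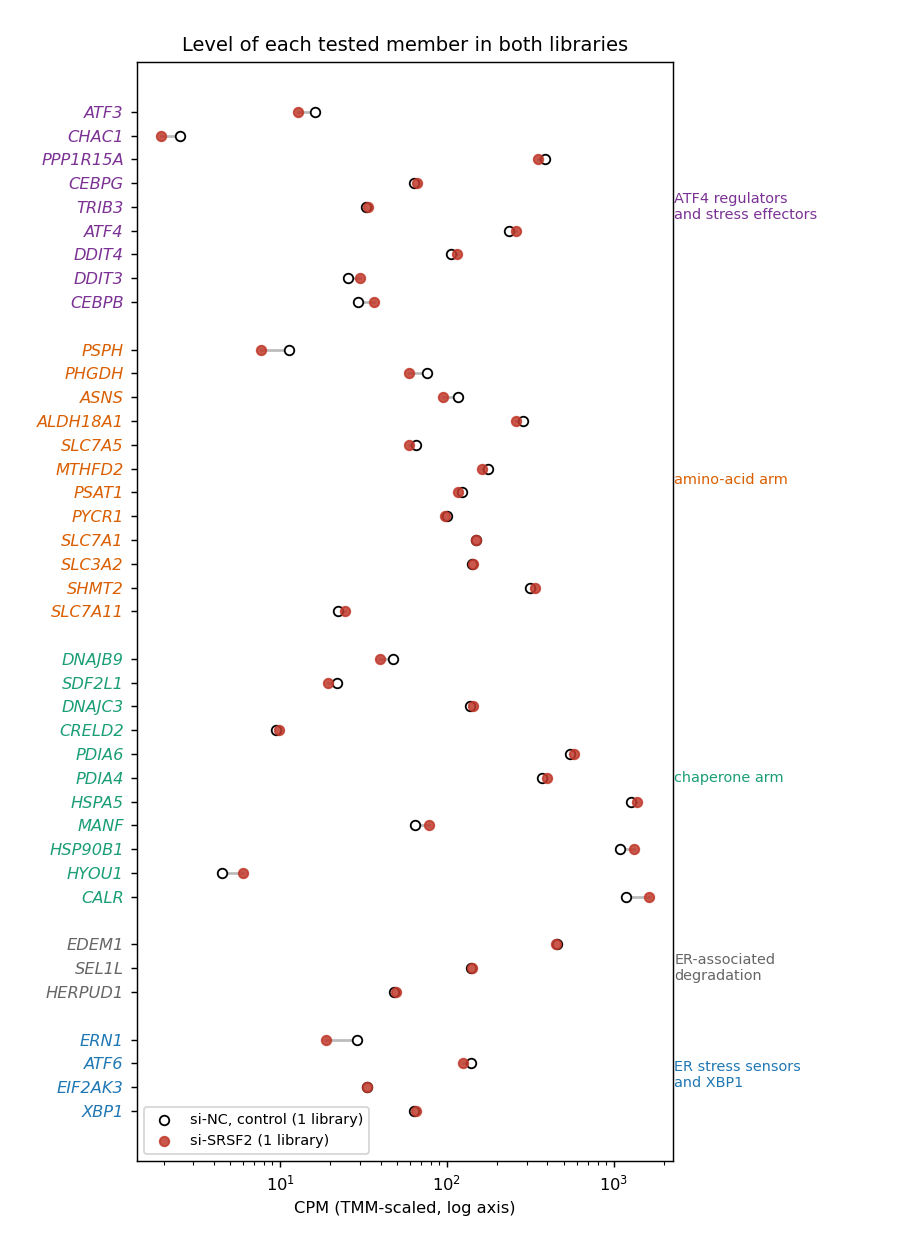
CPM of the 39 tested members in the si-NC library (open circles) and the si-SRSF2 library (red circles) on a log axis, grouped by role and ordered by ratio within a group. Most pairs nearly coincide, and the widest gaps are those of ERN1, PSPH and CALR among genes with over 100 counts.

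**Figure D2:**
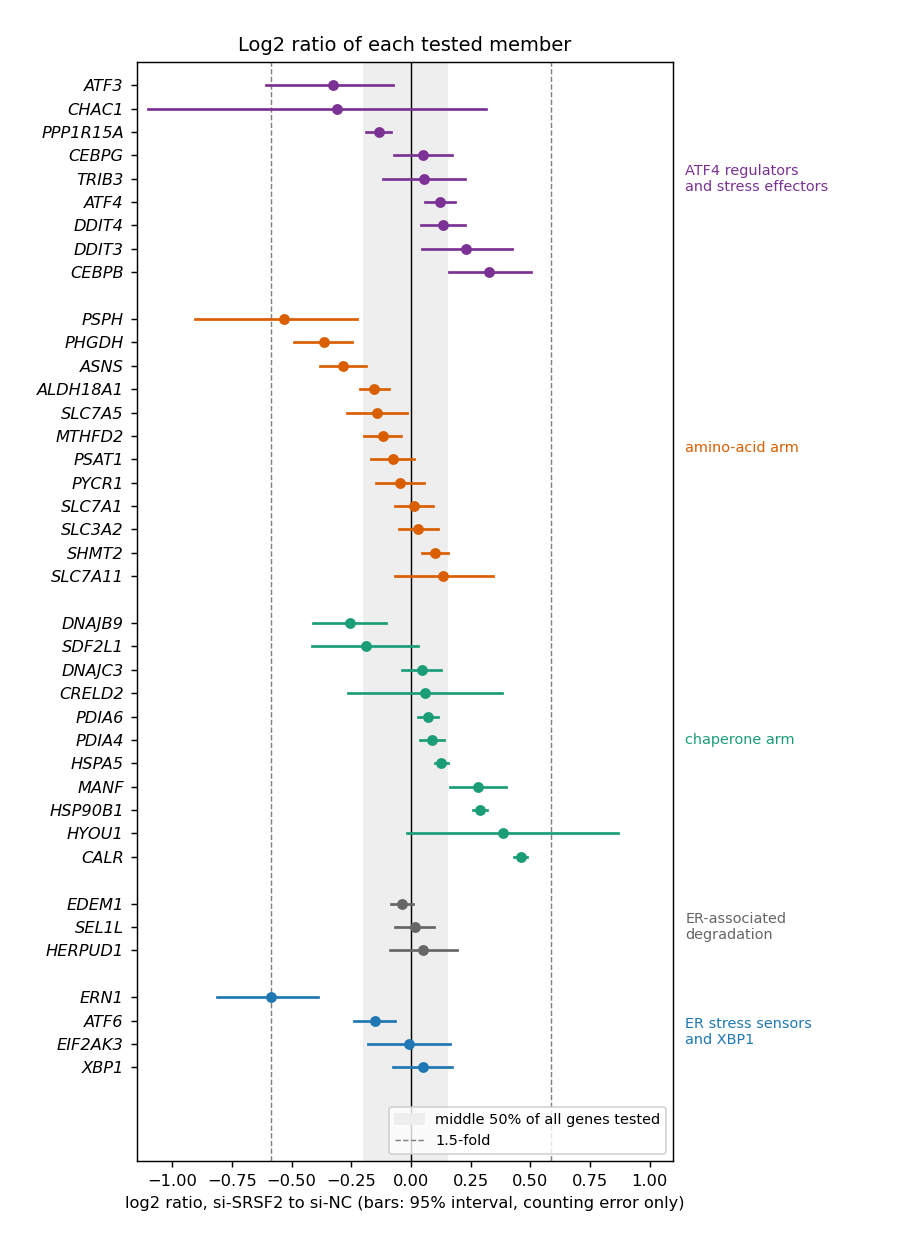
Log2 ratio (si-SRSF2 over si-NC) for the 39 tested members, with 95% Clopper-Pearson intervals (counting error only), a band for the middle 50% of all genes tested and dashed lines at 1.5-fold. ERN1 lies on the lower line, most of the amino-acid arm lies left of 0 and most of the chaperone arm right of it.

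Among the 11 regulators and effectors, ATF4 itself had 4718 counts in the control library and 3739 after knockdown, or 237 and 258 CPM. This was a log2 ratio of 0.12 (0.06 to 0.18), which 71.4% of all genes tested fell below. DDIT3, the gene of the stress transcription factor CHOP, went from 25.5 to 30.04 CPM (509 and 436 counts), a log2 ratio of 0.23 (0.05 to 0.42). Its exons overlap those of MARS1, on the opposite strand, by up to 156 bases, and MARS1 had 2386 and 1533 counts, so the value of DDIT3 is uncertain to that extent. CEBPB, a bZIP factor that pairs with ATF4 family proteins, had the highest ratio of this group, 0.33 (0.16 to 0.50), from 581 and 532 counts. CEBPG, a bZIP partner of ATF4, stood at 0.05 (-0.07 to 0.17). DDIT4, an inhibitor of mTORC1 signalling, had 105 and 115 CPM, a ratio of 0.13 (0.04 to 0.23).

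The other effectors of the group lay on both sides of 0. TRIB3, a pseudokinase that is a target of ATF4 and CHOP, had 649 and 491 counts, a log2 ratio of 0.05 (-0.12 to 0.23). PPP1R15A encodes GADD34, which directs a phosphatase to eIF2 and so ends the response. It had 385 CPM in the control library and 351 after knockdown, a ratio of -0.14 (-0.19 to -0.08). ATF3, a repressor induced by many stresses, went from 323 to 186 counts, a ratio of -0.33 (-0.61 to -0.07). CHAC1, which degrades glutathione and is among the most responsive ATF4 targets, was barely present, with 50 and 28 counts, and its ratio of -0.31 had an interval from -1.10 to 0.32. STC2, a secreted glycoprotein, had 0 counts in both libraries, which by counting error alone allows up to 0.151 CPM in the control library and 0.207 after knockdown. How reads with several matches were counted is not given in the sources used here, so this 0 is not read as absence. VLDLR, a lipoprotein receptor, had 1 count in si-NC and 0 in si-SRSF2. Of the 9 tested genes of the group, 6 were higher and 3 lower, against 46.2% and 53.8% of all genes tested, with a median log2 ratio of 0.05. The interval lay above 0 for 4 of them and below 0 for 2, against 21.0% and 26.7% of all genes tested.

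In the amino-acid arm, 8 of the 12 genes were lower and 4 higher in si-SRSF2, with a median log2 ratio of -0.10 and a range from -0.53 to 0.14. The interval lay below 0 for 6 genes and above 0 for 1, against 26.7% and 21.0% of all genes tested, of which 53.8% were lower. The lowest ratios were those of PSPH, PHGDH and ASNS. PHGDH makes the first step of serine synthesis from a glycolytic intermediate. It had 1516 counts in the control library and 856 after knockdown, or 76.1 and 58.98 CPM, a log2 ratio of -0.36 (-0.49 to -0.25). PSPH, the phosphatase of the last step, had 225 and 111 counts, a ratio of -0.53 (-0.90 to -0.23). It is uncertain, since its pseudogene PSPHP1 had 92 counts in each library and 12.3% of its sampled 31-base words also occur on alternate scaffolds. PSAT1, the transaminase between them, had 122 and 116 CPM, a ratio of -0.08 (-0.17 to 0.01). Of the 3 enzymes, PHGDH therefore had the clearest difference.

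ASNS, which makes asparagine and carries the CARE printed above, had 2315 counts in the control library and 1383 after knockdown. Its level went from 116 to 95.3 CPM, a log2 ratio of -0.28 (-0.38 to -0.19). Only 16.1% of all genes tested had a lower ratio. The 2 genes of proline synthesis lay nearer to 0. ALDH18A1, which makes its precursor, stood at -0.15 (-0.21 to -0.09) from 5727 and 3750 counts, and PYCR1, the last enzyme, at -0.05 (-0.15 to 0.05) from 1991 and 1404.

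Of the mitochondrial folate enzymes among the members, SHMT2 was higher and MTHFD2 lower. SHMT2, which turns serine into glycine and a one-carbon unit, was the only gene of this arm with its interval above 0, with 313 and 335 CPM and a ratio of 0.10 (0.04 to 0.15). MTHFD2, which oxidises that unit, had 177 and 163 CPM, a ratio of -0.12 (-0.19 to -0.04). MTHFD1L, a mitochondrial folate enzyme outside the member list that was named after its values were seen, stood at 0.23 (0.12 to 0.34). The exons of MTHFD2 overlap those of SLC4A5 on the other strand by up to 1324 bases, and SLC4A5 had 15 and 5 counts. The transporters among the members stayed close to their control levels. SLC3A2, the heavy chain shared by several amino acid transporters, stood at 0.03 (-0.05 to 0.11). Its partner SLC7A5, the carrier of large neutral amino acids, had 1307 and 863 counts, a ratio of -0.14 (-0.27 to -0.02), which no longer lay clear of 0 with upper-quartile scaling. The pseudogene SLC7A5P2 had 112 and 109 counts. SLC7A11, the cystine carrier, stood at 0.14 (-0.07 to 0.34) and SLC7A1, the arginine and lysine carrier, at 0.01 (-0.07 to 0.09).

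In the chaperone arm, 9 of the 11 genes were higher and 2 lower in si-SRSF2, against 46.2% and 53.8% of all genes tested. The median log2 ratio was 0.09, with a range from -0.25 to 0.46. The interval lay above 0 for 6 genes and below 0 for 1, against 21.0% and 26.7% of all genes tested and 117 and 67 of the 211 genes whose mean reached 500 CPM. CALR, a calcium-binding chaperone for glycoproteins, had 23555 counts in the control library and 23587 after knockdown despite the smaller library, or 1182 and 1625 CPM. Its log2 ratio of 0.46 (0.43 to 0.49) was the highest of all 39 tested members, and 93.1% of all genes tested fell below it. HSP90B1 (GRP94), the HSP90 of the ER, had 21605 and 19222 counts, or 1084 and 1324 CPM, a ratio of 0.29 (0.26 to 0.32). HSPA5 (BiP), the HSP70 of the ER that also holds the stress sensors inactive, had 1267 and 1384 CPM, a ratio of 0.13 (0.10 to 0.15). All 3 carry an ERSE, printed above. PDIA4 and PDIA6, which form disulfide bonds, stood at 0.09 (0.04 to 0.14) and 0.07 (0.03 to 0.11).

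MANF, a secreted ER factor, had 64.6 and 78.5 CPM, a log2 ratio of 0.28 (0.16 to 0.40). The partners of BiP lay on both sides of 0. DNAJB9 (ERdj4), which binds BiP and restrains IRE1, had 943 and 575 counts, a ratio of -0.25 (-0.41 to -0.11), and was the only gene of the arm with its interval below 0. SDF2L1 had 439 and 280 counts, a ratio of -0.19 (-0.41 to 0.03), and DNAJC3 (p58IPK) stood at 0.05 (-0.04 to 0.13). CRELD2 stood at 0.06 (-0.26 to 0.38) from 187 and 142 counts. HYOU1 (GRP170) had 89 and 87 counts, a ratio of 0.39 (-0.02 to 0.87), which lay clear of 0 with upper-quartile scaling. Per kilobase of transcript it was at 0.971 and 1.30 CPM, the lowest of the chaperone arm, where CALR was at 622 and 855. None of its sampled 31-base words occurred on alternate scaffolds, but how the counting treated reads with several matches is not given in the sources used here, so this low level is uncertain.

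The 3 genes for degradation of misfolded ER proteins were close to 0. EDEM1, which directs trimmed glycoproteins to degradation, had 459 and 447 CPM, a log2 ratio of -0.04 (-0.08 to 0.01). SEL1L, the scaffold of the ubiquitin ligase HRD1, stood at 0.02 (-0.07 to 0.10), and HERPUD1, an adaptor of that complex whose promoter held both a CARE and an ERSE-II, at 0.05 (-0.09 to 0.19). All 3 intervals lay within 1.5-fold of no difference.

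The sensors differed among themselves. ERN1, on chromosome 17 of GRCh38 from 64039080 to 64130819, had 572 counts in the control library and 275 after knockdown, or 28.7 and 18.9 CPM, which left 66.02% of the control level. Its log2 ratio of -0.59 (-0.81 to -0.39) was the lowest of all 39 tested members, and 3.48% of all genes tested had a lower one. It passed the 1.5-fold limit (0.58 on the log2 scale) by a narrow margin and missed it with upper-quartile scaling and with a pseudocount of 2 CPM. XBP1, whose mRNA IRE1 splices, had 1263 and 952 counts, a ratio of 0.05 (-0.07 to 0.17). ATF6 had 139 and 125 CPM, a ratio of -0.15 (-0.24 to -0.07). EIF2AK3 had 33.3 and 33.1 CPM, a ratio of -0.01 (-0.18 to 0.16), whose sign turned with upper-quartile scaling. ERN1 was thus the sensor with the clearest difference, while the other sensor kinase stood near its control level.

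Levels can be compared between genes per kilobase of canonical transcript. On that scale the chaperones CALR, HSP90B1, HSPA5 and PDIA6 were the most abundant members, followed by ATF4 at 167 CPM per kilobase in the control library and 182 after knockdown and PPP1R15A at 164 and 149. ASNS had 48.7 and 39.95, XBP1 35.4 and 36.6 and DDIT3 28.3 and 33.3. The sensors were lower, with ATF6 at 18.6 and 16.8, EIF2AK3 at 7.34 and 7.31 and ERN1 at 3.64 and 2.40. Below ERN1 came SLC7A11, CHAC1 and HYOU1, and then VLDLR and STC2, which did not pass 1 CPM.

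Both arms were then compared with each other. The median log2 ratio of the amino-acid arm lay below that of the chaperone arm by 0.19 (difference -0.19). The amino-acid arm summed to 31485 counts in the control library and 21895 after knockdown, or 1580 and 1509 CPM, a log2 ratio of summed CPM of -0.07 (-0.09 to -0.04). The chaperone arm summed to 94473 and 81306 counts, or 4740 and 5602 CPM, a log2 ratio of 0.24 (0.23 to 0.26). Within a library the amino-acid arm made up 24.996% of the counts of both arms in si-NC and 21.2% in si-SRSF2. The ratio of the 2 arms was 0.808 times that of the control (exact conditional 95% interval 0.792 to 0.824), a value that library scaling cannot move.

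This value rested largely on the abundant chaperones. Without the most abundant gene of each arm, SHMT2 and CALR, it was 0.829 (0.810 to 0.848). Without the 3 most abundant chaperones, CALR, HSPA5 and HSP90B1, it was 0.909 (0.885 to 0.933). All 3 belong to the 211 genes of the whole table whose mean reached 500 CPM, for which the median log2 ratio was 0.05, with 134 genes higher and 77 lower. The part of abundance in the difference between the arms was not tested, and fewer cells in a state and less RNA per cell cannot be told apart in bulk RNA. Median transcript length was 2327 bases in the amino-acid arm and 2409 in the chaperone arm, and median GC content was 50.98% and 49.7%. Single genes varied widely, with GC content from 35.4% to 63.1% in the amino-acid arm and from 37.3% to 65.1% in the chaperone arm. The part of length and GC content in the difference was not tested.

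**Figure D3:**
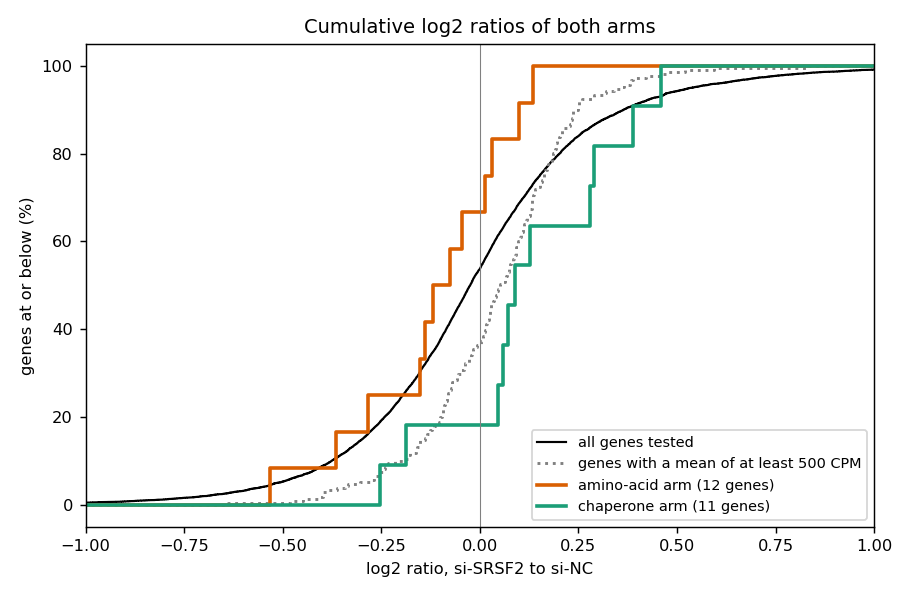
Cumulative share of genes (%) at or below each log2 ratio (si-SRSF2 over si-NC), for the 12 amino-acid arm genes, the 11 chaperone arm genes, all genes tested and genes whose mean reached 500 CPM. The amino-acid curve lies left of the chaperone curve, with medians of -0.10 and 0.09.

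**Figure D4:**
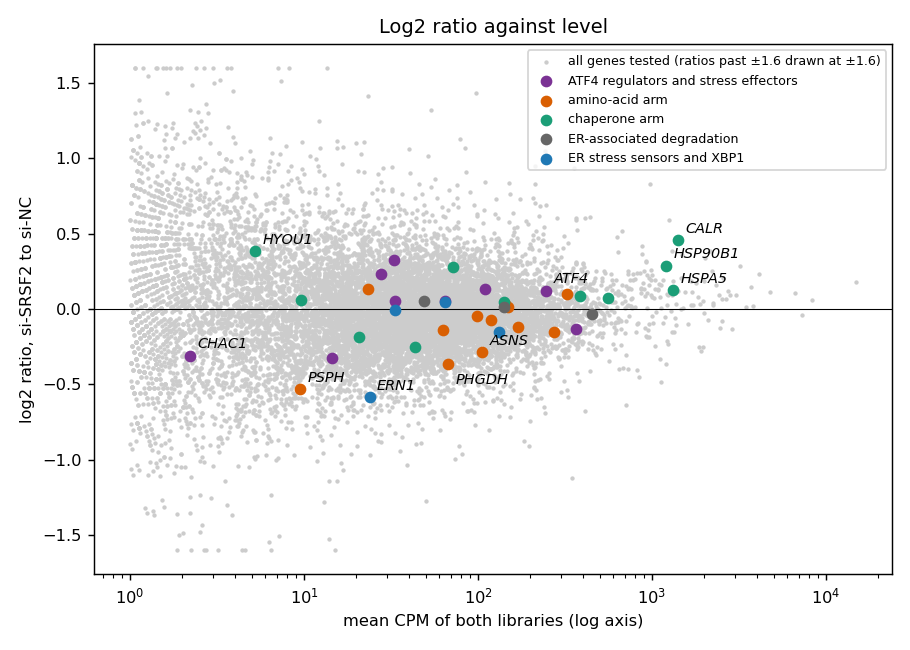
Log2 ratio (si-SRSF2 over si-NC) against the mean CPM of both libraries (log axis), with the members coloured by role over all genes tested in grey. CALR, HSP90B1 and HSPA5 lie above 0 at the high end, while ERN1 and PSPH lie below 0 at low levels, where the grey cloud is wide.

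The other genes of these pathways were taken from lists of known members, whose counts stand beside 46.2% higher, 53.8% lower, 4.18% at least 1.5-fold higher and 3.52% at least 1.5-fold lower among all genes tested. Of 20 cytosolic tRNA synthetases, several of which are ATF4 targets, 19 were tested, 13 were lower and 6 higher, the median log2 ratio was -0.04 and none was 1.5-fold changed. The interval lay above 0 for 5 of them and below 0 for 7, against 21.0% and 26.7% of all genes tested. VARS, the valine enzyme, which every cell needs, was listed at 0 counts in both libraries. How reads with several matches were counted is not given in the sources used here, so these values are not read as its level. Of 22 other ATF4 targets 16 were tested, with 9 higher, 7 lower, 4 intervals above 0, 3 below and a median of 0.03. Of the tested genes only GDF15, a secreted stress cytokine that p53 also induces, was at least 1.5-fold higher, from 161 to 233 counts, a log2 ratio of 0.95 (0.69 to 1.29). SLC1A4, a carrier of serine and alanine, was at least 1.5-fold lower, with 378 and 164 counts and a ratio of -0.72 (-1.02 to -0.48). SLC38A2, another carrier of this list, stood at 0.52 (0.48 to 0.56), short of 1.5-fold, and was named after its values were seen.

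Among 13 genes of eIF2, its exchange factor, its kinases, its phosphatase subunit PPP1R15B and the separate initiation factor EIF2A, 8 were lower and 5 higher, with a median log2 ratio of -0.11, none 1.5-fold changed, 4 intervals above 0 and 6 below. Of 33 other genes of ER folding, translocation and degradation 30 were tested, with 17 higher, 13 lower and a median of 0.02. Of the tested genes only MBTPS2, the protease that makes the second cut in ATF6, was 1.5-fold changed, from 1026 to 463 counts, a ratio of -0.68 (-0.85 to -0.53). The interval lay above 0 for 8 genes of this list and below 0 for 9, near the 21.0% and 26.7% of all genes tested. ATF6B, a relative of ATF6, was also listed at 0 counts in both libraries, with the same doubt about the counting as for VARS. Of 10 mitochondrial chaperones and proteases, 7 were higher and 3 lower, with a median of 0.10, 5 intervals above 0 and 1 below. Their summed CPM had a log2 ratio of 0.23, beside 0.24 for the chaperone arm. The same ratio was 0.16 for the other ATF4 targets and 0.10 for the other ER folding, translocation and degradation genes. It was 0.01 for the eIF2 genes and -0.02 for the tRNA synthetases. DNAJA3, a mitochondrial HSP70 partner, went from 162 to 15 counts, a ratio of -2.49 (-3.85 to -2.21), the only tested gene of these lists past 2-fold. The doubt about the counting stands for DNAJA3 too, and alternate scaffolds were searched for the members only, so its value is uncertain.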

How the data were processed

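RNA-seq of 2 RKO libraries (150 bp pairs, stranded poly(A) kit) was analysed. Before they deposited the table, the authors trimmed the reads, aligned them with HISAT2 2.0.4 (version per the submitters' processing notes) to GRCh38 and counted reads per gene with HTSeq, so the deposited values are raw counts. Whether HTSeq used strand is not given in the sources used here, and 15 of the 41 members have exons that overlap a gene on the other strand, and their counts are uncertain to that extent.

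Library sizes were scaled with edgeR 4.0.16 (TMM, R 4.3.3). Ratios used a pseudocount of 0.5 CPM and genes whose mean reached 1 CPM. With 1 library per group edgeR was used for scaling only and no test was run across all genes. Intervals were Clopper-Pearson at 95% (SciPy 1.17.1), the comparison of arms used the exact conditional odds ratio, and a count of 0 was taken to allow 3 counts. Intervals and this limit cover counting error only, and PCR copies were not identified. The calculations were tested on simulated data. Lengths and positions came from GENCODE release 44, promoters from RefSeq (GRCh38.p14), of which the first 250 bases of each entry were used. Alternate-scaffold copies were searched with every 10th 31-base word.

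All members were named. In the other lists, genes at least 1.5-fold changed with an interval clear of 0 were named, up to 4 a list; exceptions are marked. Members and lists were chosen with earlier results of these data known.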

Additional observations from a re-analysis of the deposited data

How the results depend on the processing

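The values were recomputed without a filter, with genes of at least 5 CPM on average and with a pseudocount of 0.1 or 2 CPM. Libraries were also scaled by upper-quartile factors, by DESeq2 1.42.0, by plain totals or by TMM without mitochondrial genes and the 20 most abundant genes. The number of members at least 1.5-fold lower was 1 (ERN1) and became 0 with upper-quartile factors and 0 with a pseudocount of 2 CPM. No member passed 2-fold under any of the 8 alternatives. The ratio of the arms' summed counts, 0.808, was 0.829 without the most abundant gene of each arm and 0.909 without the 3 most abundant chaperones, a choice made after seeing the data; the direction was kept. With upper-quartile factors the median log2 ratio of the degradation genes went from 0.02 to 0.04 and that of all genes tested from -0.02 to -0.00, and at 5 CPM the median of the regulators went from 0.05 to 0.09. No median of the 5 groups of members changed sign. The difference between both arms was -0.19 under every scaling and -0.16 without PSPH and HYOU1, also chosen after seeing the data. Of the 39 members, EIF2AK3 alone changed sign, from -0.01 to 0.02 with upper-quartile factors. No paired analysis was possible because only 1 library stood for either group, and leaving out a replicate was not possible either. Among the 39 tested members, depth limits CHAC1, HYOU1, CRELD2 and PSPH most, and variation between transfections is unknown.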
